A study of Mus with 8 samples.

Results

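Newborn cells that expressed the erythroid genes Klf1 and Car1 are described here, taken from the Lin-Kit+ libraries of newborn (P0) mice. A cell was a barcode with at least 7500 gene UMI (unique molecular identifiers, each standing for 1 captured RNA molecule) and at most 10% of its UMI from mitochondrial genes. A cell was called erythroid when Klf1 and Car1 together gave at least 5 of every 10000 gene UMI. The rule found 1190 such cells among the 11658 cells of the newborn Lin-Kit+ libraries and the 35549 cells of the whole series. They were 565 of the 5891 cells in the Ifnar+/- library and 625 of the 5767 in the Ifnar-/- library. Because measured Klf1 and Car1 chose the cells, every gene set against the remaining cells is given as a description.

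The study's title asks how interferon regulates blood formation in the newborn, and sorted mouse progenitors were profiled by CITE-seq, which reads RNA and antibody tags on the same cells. The 8 libraries cover P0 and P14 mice, Lin-Kit+ and Lin-Sca1+Kit+ cells, and Ifnar+/- or Ifnar-/- mice, with 1 library for each combination. Ifnar is the receptor for type I interferons, so every mouse carried at least 1 mutant allele, and the heterozygote serves as the control. The labels name neither the organ nor the number of mice in a library. With 1 library per group, no difference was tested. All differences are therefore given as sizes, and the 95% intervals cover counting error alone.

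Erythroid progenitors commit to making red cells under the transcription factors Gata1 and Klf1 and under the hormone erythropoietin, which acts through its receptor Epor. While they divide they build up the haem pathway, the iron uptake machinery and the membrane skeleton, and globin output climbs later. Carbonic anhydrase 1, the product of Car1, interconverts carbon dioxide and bicarbonate and is expressed early in the mouse erythroid lineage.

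The label was checked against lineage markers, with levels in CPM, the UMI of a gene or list scaled to the same total UMI in each group of cells. The 9 erythroid markers were all above 0 in both libraries, but Klf1 and Car1 among them chose the cells. The 7 others summed to 2078 CPM in the erythroid cells of the Ifnar+/- library and to 1926 CPM in those of the Ifnar-/- library. The other cells gave 1232 and 1140 CPM, and those of them with at least 1 Klf1 UMI per 10000 gave 2678 and 2385 CPM. Cells with under 1 Klf1 plus Car1 UMI per 10000 gave 152 and 146 CPM, and barcodes of at most 100 UMI, which hold free RNA, gave 1194 and 1373 CPM. In the erythroid cells the metallothionein Mt2 alone gave 1448 and 1241 CPM of the sum of the 7, so this sum is mostly Mt2. The 8 neutrophil progenitor markers gave 241 and 309 CPM in erythroid cells, 4031 and 5108 CPM in the other cells and 3256 and 3907 CPM in free RNA. The 8 monocyte progenitor markers gave 15.3 and 11.8 CPM, and the 10 megakaryocyte markers 57.0 and 51.8 CPM, against 138 and 99.7 CPM in the other cells, with Gp6 and Ppbp at 0. The neutrophil, monocyte and megakaryocyte lists were below their level in the other cells, and the 7 erythroid markers were above theirs but below their level in the other Klf1 cells.

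The median depth of the erythroid cells was 60448 gene UMI in the Ifnar+/- library and 46479 in the Ifnar-/- library, against 45091 and 36600 in the other cells. Their summed UMI came to 35662785 and 31159865. Scrublet, which scores cells that look like mixtures, marked 20 and 18 of the erythroid cells as doublets. No barcode was shared between the erythroid cells of the newborn libraries, and 1 was shared between those of the newborn and P14 Ifnar-/- libraries.

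In practice the rule picked cells by Car1. Klf1 gave 13.1% of the UMI counted by the rule in the Ifnar+/- library and 14.9% in the Ifnar-/- library. Car1 alone carried 473 and 496 of the cells past the limit, while Klf1 alone would have carried 1 and 4. The median score was 9.84 and 10.6 per 10000, and the highest were 43.4 and 45.9. Just inside the limit, at 5 to 6 per 10000, lay 71 and 87 cells, and just outside it, at 4 to 5, lay 142 and 160. The limit therefore cuts through a continuous range of the score, and the cells were not clustered by their whole profile. Throughout, the first of a pair of values is from the Ifnar+/- library and the second from the Ifnar-/- library.

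Among the factors that drive the lineage, Klf1, the erythroid Krüppel-like factor (chr8:84901982-84905291 in GRCm38), stood at 149.8 and 183 CPM in erythroid cells and 88.1 and 96.0 CPM in the other cells. Gata1, the master factor of the lineage, stood at 95.2 and 98.2 CPM against 58.9 and 56.1 CPM. Epor stood at 59.9 and 70.3 CPM against 38.2 and 41.1 CPM. Each of these 3 genes was under 2-fold higher than in the other cells. The lists as a whole went both ways. On the erythroid transcription factor list 12 of 20 genes were higher in both libraries and 6 were lower, 1 of them at least 2-fold. Its median log2 ratios were 0.06 and 0.15, against -0.09 and -0.07 over all genes. On the erythropoietin signalling list 7 of 13 were higher and 5 lower, 1 of them at least 2-fold, with medians of 0.05 and 0.07.

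Car1 (chr3:14766214-14808365) stood at 991 and 1051 CPM against 37.3 and 33.8 CPM, a gap that the rule sets. Its neighbour Car2, another cytosolic carbonic anhydrase 77903 bp away, stood at 674 and 759 CPM against 463 and 494 CPM. Rhd (chr4:134864536-134896172), a Rhesus blood group protein of the red cell membrane, stood at 81.2 and 117 CPM against 56.4 and 74.2 CPM. These neighbours in function were higher than in the other cells by far less than Car1 itself.

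Rhag (chr17:40811099-40844094), the Rhesus-associated glycoprotein, stood at 120.5 and 118 CPM against 71.2 and 70.3 CPM. Mt2 (chr8:94172618-94173567), a metallothionein that binds zinc and copper, stood at 1448 and 1241 CPM against 829 and 727 CPM, and Mt1, 5315 bp from it, at 2031 and 1903 CPM against 1167 and 1115 CPM. The 7 erythroid markers that the rule did not use were each higher in the erythroid cells than in the other cells of both libraries, and none reached 2-fold.

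Shares of cells with a UMI were set against other cells chosen for the neutrophil genes Elane and Prtn3, which should lack erythroid RNA. After every cell was thinned to 7500 UMI, Klf1 was seen in 60.5% and 68.3% of erythroid cells and in 3.63% and 5.03% of the neutrophil-like cells. Without thinning the shares were 95.2% and 95.5% against 14.7% and 14.5%. Rhag was seen in 48.5% and 49.1% of thinned erythroid cells against 2.69% and 2.65%. Elane showed the reverse, at 9.03% and 9.76% of erythroid cells against 54.3% and 55.2%. Klf1 and Elane helped to choose these cells. Rhag did not, but the marker set that holds it was chosen with earlier results of these data known, so its share too is a description.

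Of 13349 genes, 47 were at least 2-fold higher in the erythroid cells than in the other cells of both libraries (0.352%), and 1863 were at least 2-fold lower (14.0%). A gene was counted with at least 50 UMI in either sum. The other cells held 266844951 and 207069796 UMI, against 35662785 and 31159865 in the erythroid cells. Genes of low level could thus enter more easily as lower than as higher, so the sizes of the 2 counts are not set against each other. The 8 neutrophil progenitor markers were all among the lower genes. S100a8, an alarmin of neutrophils, stood at 7.49 and 4.204 CPM against 365 and 325 CPM. Camp, the cathelicidin peptide, stood at 1.51 and 1.25 CPM against 70.1 and 98.6 CPM, and Cebpe, a granulocyte factor, at 0.841 and 1.44 CPM against 27.4 and 34.8 CPM. Stfa1, Cstdc4 and Cstdc5 of the cystatin family were also among the named lower genes, but such near-identical copies can share reads.

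The higher genes had smaller ratios, and with 5 CPM added before the ratio 2 genes were higher and 333 lower. Ltbp1, which binds latent transforming growth factor beta, stood at 26.7 and 27.3 CPM against 10.2 and 11.7 CPM. Gdf3, a ligand of the same superfamily, stood at 39.0 and 39.1 CPM against 18.9 and 18.1 CPM. Ltbp1 and Gdf3 were 2 of the 6 higher genes that met the 20 CPM minimum. The others were Clca3a1, Kcng2, Trnp1 and Tcrg-C1, the last the most abundant of the 6, at 155 and 140 CPM against 67.6 and 68.5 CPM. Against the other Klf1 cells the log2 ratios of Ltbp1 and Gdf3 were smaller, and neither gene was 2-fold higher. Ltbp1 had 0.64 and 0.42 there, and Gdf3 had 0.23 and 0.29. On the red cell membrane list 21 of 24 measured genes were higher than in all the other cells of both libraries. The median log2 ratios of that list were 0.50 and 0.60, against -0.09 and -0.07 over all genes. On the haem list 17 of 20 were higher, with medians of 0.44 and 0.47. None of these membrane and haem genes reached 2-fold higher, and 1 haem gene was at least 2-fold lower: Alas1, the housekeeping form of the first haem enzyme, at 14.2 and 17.7 CPM against 64.0 and 72.7 CPM.

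Many of the other cells also expressed Klf1. At least 1 Klf1 UMI per 10000 was found in 1393 of 5326 other cells of the Ifnar+/- library (26.2%) and in 1475 of 5142 of the Ifnar-/- library (28.7%). The erythroid cells of the rule with that much Klf1 were 20.1% and 23.9% of all such cells at birth. At P14 they were 71.7% and 71.5%. The other cells were then limited to those with under 1 Klf1 plus Car1 UMI per 10000. Against these, 523 genes were at least 2-fold higher in both libraries and 2628 lower, a comparison added after the data had been seen.

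**Figure D1:**
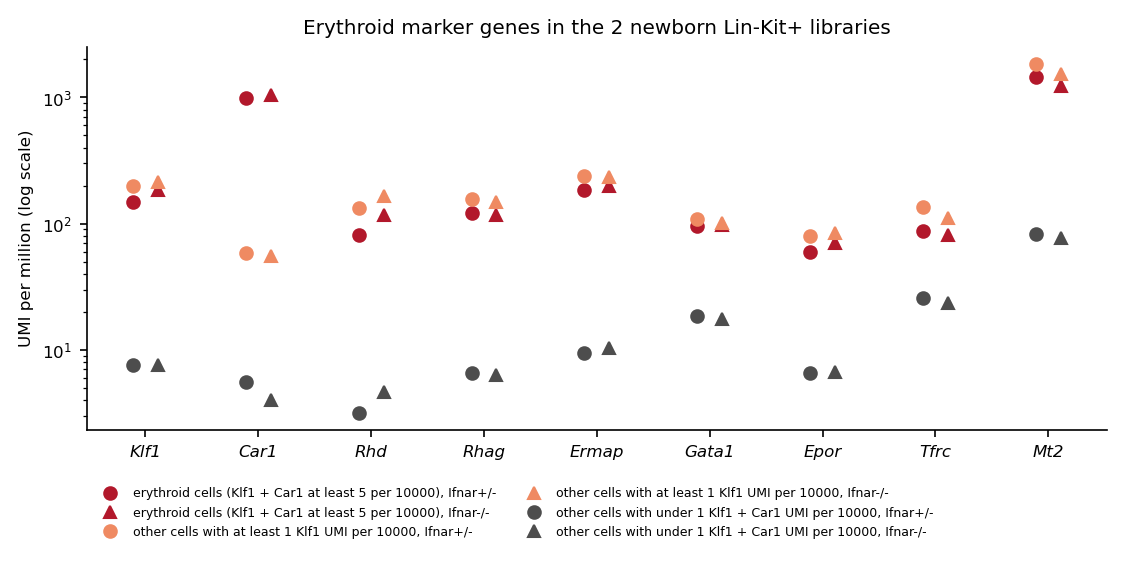
CPM on a log axis of 9 erythroid marker genes in the erythroid cells, in other cells with at least 1 Klf1 UMI per 10000 and in other cells with under 1 Klf1 plus Car1 UMI per 10000, 1 point per newborn library. Car1 separates the erythroid cells (991 and 1051) from the other Klf1 cells (58.1 and 55.6). The 8 remaining genes are higher in the other Klf1 cells than in the erythroid cells of both libraries, and Klf1 among them chose the other Klf1 cells.

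The erythroid cells were next set against these other Klf1 cells, again as an addition made after seeing the data. Of 11136 genes, 56 were at least 2-fold higher in both libraries (0.503%) and 15 were at least 2-fold lower (0.135%). Of 24 measured red cell membrane genes, 20 were lower in the erythroid cells of both libraries and 1 was higher, with median log2 ratios of -0.37 and -0.33, against -0.00 and 0.00 over all genes. Rhd stood at 81.2 and 117 CPM against 132 and 166 CPM in the other Klf1 cells. Cd24a, a surface glycoprotein of erythroid precursors, stood at 263 and 296 CPM against 382 and 404 CPM.

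The haem and iron lists had the same direction. Of 19 measured haem genes, 17 were lower in both libraries and 0 were higher in both, with medians of -0.30 and -0.26. Cpox, coproporphyrinogen oxidase, stood at 430.2 and 512 CPM against 618 and 675 CPM. Of 15 iron genes 13 were lower and 1 was higher, and Fth1, the ferritin heavy chain, stood at 2189.7 and 2789.5 CPM against 2909 and 3523 CPM. No gene of these lists was 2-fold apart. Alas2, the erythroid form of the first haem enzyme, was close to 0 in the erythroid cells, at 0.505 and 0.738 CPM.

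With at least 20 CPM, 6 of the 56 higher genes could be named. Vim, the intermediate filament vimentin, stood at 275 and 232 CPM against 101 and 106 CPM in the other Klf1 cells. Fli1, a factor of megakaryocytes, stood at 24.2 and 21.0 CPM against 10.6 and 10.048 CPM, and Apoe, a lipid carrier, at 679 and 674 CPM against 311 and 334 CPM. Clec4d, Rab37 and Ctla2a were the others; these names were chosen after their values were seen. On the megakaryocyte marker list 3 of 8 measured genes were at least 2-fold higher, among them Gp1bb and Itga2b. Itga2b, which encodes CD41, stood at 21.8 and 19.6 CPM against 7.38 and 6.96 CPM. Against all other cells the same list ran the other way, with 0 genes at least 2-fold higher, 3 lower and medians of -0.85 and -0.63, and Fli1, at 50.7 and 46.6 CPM there, was lower in the erythroid cells.

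These numbers depend on how the cells were chosen, since every other Klf1 cell was picked for at least 1 Klf1 UMI per 10000, while only 350 and 462 of the erythroid cells reach that level. With the erythroid cells limited to those, 5 of 11132 genes were at least 2-fold higher (0.0449%) and 15 lower (0.135%). The haem list was then lower for 18 of 19 genes, with medians of -0.14 and -0.15, and the membrane list for 17 of 24, with medians of -0.15 and -0.21. The megakaryocyte list, with median log2 ratios of 1.08 and 0.90 before, then had 0.42 and 0.31, with 5 of 8 genes higher in both libraries and 2 lower. Vim was higher by 0.61 in both libraries and Fli1 by 0.35 and 0.45, so neither reached 2-fold. The direction of these lists was the same and the size smaller.

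The antibody tags are a readout that the rule did not use. CD150, the receptor encoded by Slamf1, had a median tag count per cell of 109 in the erythroid cells of the Ifnar+/- library and 93 in those of the Ifnar-/- library, against 15 and 13 in the other cells. The other Klf1 cells lay between, at 28 and 25. As a share of all tags of the cells, CD150 was 3.51% and 3.23% in erythroid cells and 1.32% and 1.20% in the other cells. CD150 was the 1 tag of 10 whose median was at least 1.5-fold higher in both libraries.

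Medians of 3 tags were at least 1.5-fold lower than in the other cells of both libraries. CD34, a marker of early and myeloid progenitors, had a median of 17 and 14 against 58 and 59. CD16/32, the Fc gamma receptors of granulocyte-monocyte progenitors, had 36 and 30 against 62 and 46. SA_PE, whose target the labels do not name, had 22 and 14 against 45 and 21, exactly at the limit in the Ifnar-/- library. By the share of all tags, 2 tags were lower by the same limit and SA_PE was not. CD117, the receptor Kit used in the sort, was within 1.5-fold, at 845 and 936 in erythroid cells, 708 and 754 in the other cells and 1116 and 1083 in the other Klf1 cells.

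**Figure D2:**
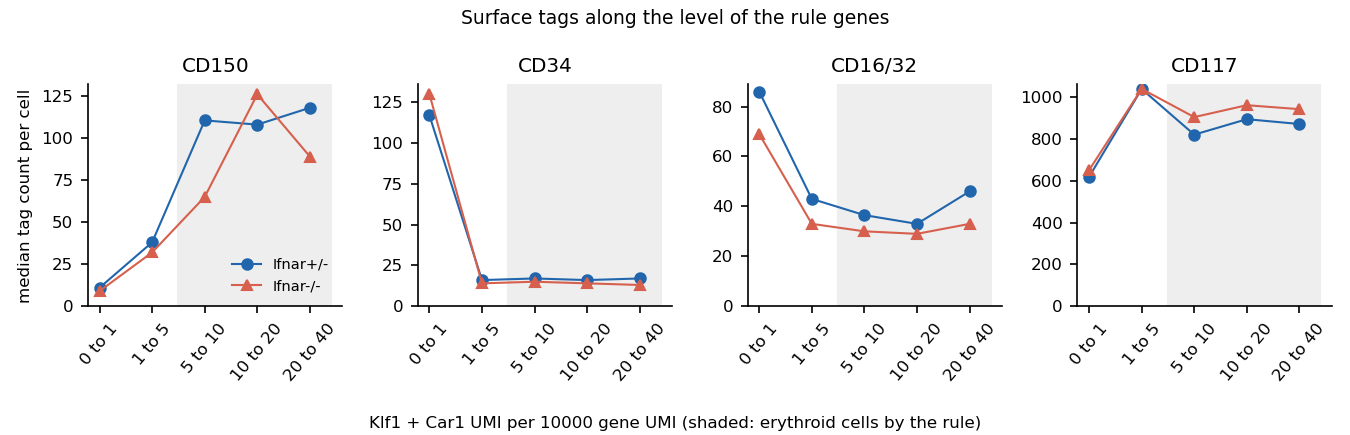
Median tag count per cell (linear axis from 0) in ranges of Klf1 plus Car1 UMI per 10000 gene UMI, 1 line per newborn library, with the erythroid cells of the rule shaded. CD150 goes from 11 and 9 in the lowest range to 108 and 126 at 10 to 20 per 10000 and stands at 118 and 89 at 20 to 40. CD34 is at 16 and 14 already at 1 to 5, and CD117 is highest at 1 to 5 among the ranges up to 40.

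Along the Klf1 plus Car1 level, 288 and 286 erythroid cells lay at 5 to 10 per 10000, 229 and 256 at 10 to 20, 47 and 81 at 20 to 40, and 1 and 2 above that. Rhag stood at 112, 129 and 131 CPM over the first 3 of these ranges in the Ifnar+/- library and at 128, 105 and 121 CPM in the Ifnar-/- library. Gata1 stood at 96.9, 93.4 and 94.8 CPM and at 99.6, 96.4 and 99.4 CPM. Gata1 thus did not rise over the ranges in either library, and Rhag rose in the Ifnar+/- library alone.

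The CD150 tag varied widely among the erythroid cells, from 9 at the 5th percentile to 465 at the 95th in the Ifnar+/- library and from 7 to 494 in the Ifnar-/- library. Each library was split at its own median, a choice made after seeing the data, into 282 and 312 CD150-high cells and 283 and 313 CD150-low cells. The split is a point on a continuous range, with 76 and 53 cells within 0.8 to 1.25 times the median. Car1 was alike, at 1056 and 1116 CPM in CD150-high cells and 941 and 998 CPM in CD150-low cells, and the median rule score was 9.85 and 11.1 against 9.82 and 9.86. Depth was not alike, with medians of 51055 and 41120 gene UMI in CD150-high cells and 71122 and 53190 in CD150-low cells. G2M-positive cells, with at least 5 UMI of 20 G2M genes after thinning to 7500 UMI, were 79.8% and 79.8% against 86.6% and 87.9%. The levels of the 20 G2M genes went both ways, with 8 higher and 8 lower in both libraries and median log2 ratios of -0.01 and 0.01. Of 20 measured G1/S genes, 16 were lower in CD150-high cells of both libraries, with median log2 ratios of -0.24 and -0.29.

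Of 9387 genes, 600 were at least 1.5-fold higher in the CD150-high cells of both libraries (6.39%) and 309 were at least 1.5-fold lower (3.29%). Slamf1, the gene of the tag, stood at 16.5 and 12.4 CPM in CD150-high cells and 3.36 and 2.05 CPM in CD150-low cells. Of the 10 megakaryocyte markers 5 were measured, and all 5, Itga2b and Gp9 among them, were among the higher genes. A marker of low level could pass the minimum of 50 UMI through the CD150-high cells alone, so this count is a description. Itga2b stood at 38.0 and 35.6 CPM against 9.47 and 6.33 CPM, and Gp9, a subunit of the platelet von Willebrand factor receptor, at 11.2 and 9.29 CPM against 3.36 and 2.35 CPM. The CD41 tag, read from the surface of the same cells, had a median of 31 and 29 against 14 and 11. The most abundant tag, CD48, was also higher, with a median of 3769 and 3962 against 2306 and 2214, while CD117 was lower, at 725 and 835.5 against 1014 and 989, and CD16/32 too, at 31 and 25 against 42 and 36.

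Among the transcription factors, Gata2, which Gata1 replaces as erythroid cells mature, stood at 55.6 and 54.2 CPM in CD150-high cells and 21.958 and 17.7 CPM in CD150-low cells. It was the 1 higher gene of the 20 on the erythroid factor list, and Gfi1b, Sox6, Klf3 and Mllt3 were lower. Meis1, a homeobox factor of stem cells and megakaryocytes, stood at 39.1 and 34.5 CPM against 8.09 and 5.10 CPM. Fli1 stood at 40.1 and 36.9 CPM against 12.1 and 7.86 CPM. Of 3 measured stem-like markers, Meis1 was higher and Mllt3 was lower. Meis1 and Fli1 were picked from the called genes after their values were seen.

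Globin genes and part of the membrane list were lower in CD150-high cells. Hba-a1, an alpha globin gene whose reads may be shared with its near-identical copy Hba-a2, stood at 2.73 and 5.53 CPM against 63.8 and 78.2 CPM. Rhd stood at 33.8 and 44.8 CPM against 117 and 176 CPM. On the membrane list 10 of 21 measured genes were at least 1.5-fold lower in both libraries and 0 were higher, and 3 of 4 globin genes were lower. Tfrc, the transferrin receptor that brings in iron, stood at 41.2 and 43.5 CPM against 122 and 113 CPM, as 1 of 4 lower genes among 14 of the iron list.

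On the haem list 9 of 18 genes were at least 1.5-fold lower in CD150-high cells and 0 were higher, with median log2 ratios of -0.62 and -0.73, against -0.00 and -0.01 over all genes. Cpox stood at 273 and 313 CPM against 549 and 676 CPM. Of the 9 erythroid markers 7 were lower, among them Klf1 at 104 and 127 CPM against 185 and 230.3 CPM. Gata1 stayed within 1.5-fold, at 90.1 and 91.2 CPM against 99.1 and 104 CPM. On the basophil and mast cell list Cpa3 and Srgn were higher and Hdc was lower, and on the neutrophil list Gstm1 was higher; the part of such RNA in the split was not tested.

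Counted per cell, the median of the summed megakaryocyte markers was 0.809 and 0.677 UMI per 10000 in CD150-high cells against 0.173 and 0.114. That of the haem list was 16.6 and 18.9 against 26.1 and 32.5. Scrublet doublets were 7 and 10 of the CD150-high cells and 13 and 8 of the CD150-low cells, and with doublets removed 651 genes were higher and 318 lower. With CD150 taken as a share of all tags 602 were higher and 331 lower, of which 525 and 292 were among the 600 and 309. With CD150 divided by the gene UMI of the cell, 717 were higher and 365 lower, of which 563 and 295 were shared.

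The same split was made at P14, in cells and libraries that the newborn split did not use. At a median CD150 tag of 338 and 265, 880 of 9389 genes were at least 1.5-fold higher in CD150-high cells of both P14 libraries (9.37%) and 310 were lower (3.3%). Of the 531 genes higher at birth and measured at P14, 443 (83.4%) were higher at P14 too. Of the 262 lower at birth and measured at P14, 191 (72.9%) were lower at P14. Most of the split's genes thus had the same call at P14, against background shares of 9.37% and 3.3%. Meis1 was higher by 2.27 and 2.75 on the log2 scale at birth and by 1.88 and 2.28 at P14.

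**Figure D3:**
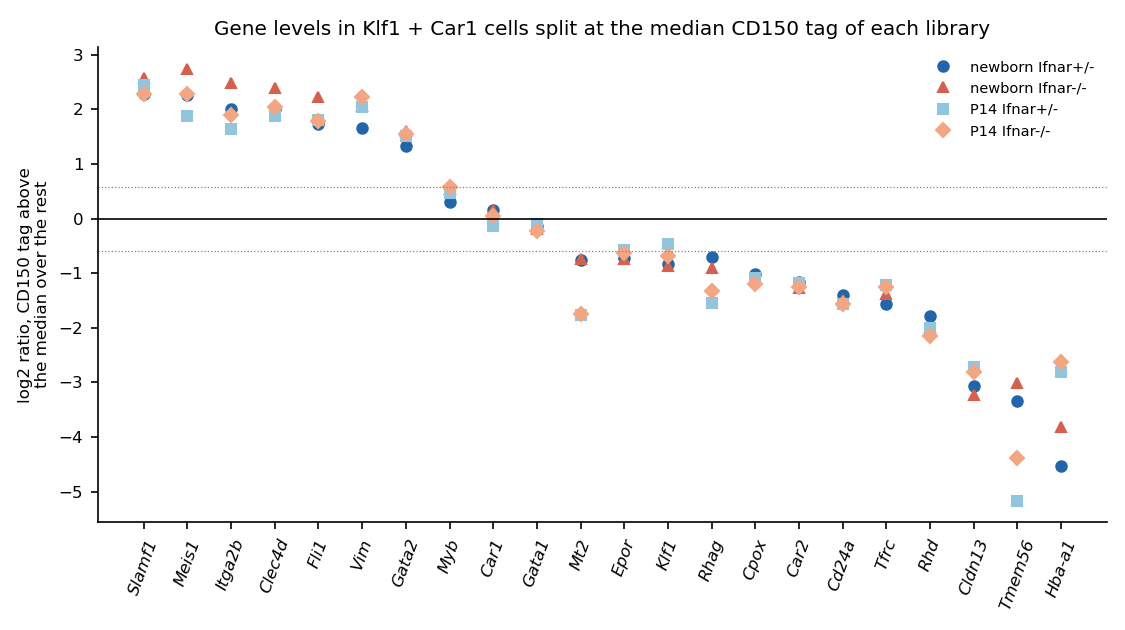
Log2 ratio of CPM between CD150-high and CD150-low cells for genes named in the text and further erythroid genes, 1 symbol per library, with dotted lines at 1.5-fold. Itga2b, Slamf1 and Meis1 lie above 0 and Rhd, Cldn13 and Hba-a1 below 0 in all 4 libraries, while Car1 and Gata1 lie within the dotted lines.

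Cell cycle state was counted by thinning each cell to 7500 UMI and asking for at least 5 UMI of 20 G2M genes. By that count 83.2% (79.8% to 86.2%, exact Clopper-Pearson) of erythroid cells of the Ifnar+/- library and 83.8% (80.7% to 86.6%) of the Ifnar-/- library were positive. The other cells reached 70.6% and 73.5%, and the other Klf1 cells 93.8% and 92.3%. By this share the erythroid cells lay between these groups. In summed levels, 9 of the 20 G2M genes were higher than in the other cells of both libraries and 8 were lower. The median log2 ratios were 0.009 and 0.005, against -0.09 and -0.07 over all genes. Against the other Klf1 cells 17 were lower and 1 was higher, with medians of -0.15 and -0.09. The difference in the share between genotypes was 0.654 percentage points (-3.67 to 5.02). Without thinning 98.1% and 96.2% of erythroid cells passed, so the share depends on depth.

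Genotype was compared within the erythroid cells. Their share of the library was 9.59% (8.85% to 10.4%) in Ifnar+/- and 10.8% (10.0% to 11.7%) in Ifnar-/- cells, a difference of 1.2 percentage points (0.135 to 2.36). With at most 5% mitochondrial UMI it was 0.832 points (-0.368 to 2.03), which includes 0. At P14 the difference was 3.91 points (1.79 to 6.003). Genotype and library cannot be told apart.

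Ifnar1, which encodes a chain of the receptor, stood at 10.5 CPM in Ifnar+/- and 9.60 CPM in Ifnar-/- erythroid cells, and Ifnar2 at 44.0 and 49.3 CPM. The reads come from the 3' end of the transcript and may lie outside the deleted part, so these values do not check the labels. The labels do not say which chain is mutated.

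Interferon-stimulated genes are switched on when type I interferons bind Ifnar. The 71 list genes summed to 2033 CPM in Ifnar+/- and 1129 CPM in Ifnar-/- erythroid cells, and to 2920 and 1606 CPM in the other cells. Among 10443 genes, the ratio of Ifnar-/- to Ifnar+/- erythroid cells passed 2-fold downward for 90 (0.862%) and upward for 9 (0.0862%), and with 5 CPM added for 37 and 1. The interferon list held 37 of the 90. In the other cells 160 of 13896 genes were lower by the same rule (1.15%) and 27 were higher (0.194%).

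Several list genes were close to 0 in the Ifnar-/- erythroid cells. Irf7, a factor that amplifies type I interferon output, had 588 and 2 UMI, a log2 ratio of -7.68 (-11.05 to -6.15). Isg15, a ubiquitin-like modifier, had 578 and 5 UMI, and Rtp4, a receptor transporter protein, 800 and 4 UMI. Oasl2, Ifi27l2a and Oas2 had 238, 101 and 30 UMI in the Ifnar+/- and 0 in the Ifnar-/- erythroid cells, at least 69.3-fold, 29.4-fold and 8.74-fold lower against a floor of 3 UMI in the Ifnar-/- sum. Reads of the Oas family may be shared between copies.

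Other list genes kept a level in the Ifnar-/- cells. Ifi27 had 67.9 and 2.89 CPM, Lgals3bp 48.1 and 2.79 CPM and Parp9 21.9 and 4.11 CPM. Bst2, or tetherin, had 151 and 68.8 CPM, and B2m, the light chain of MHC class I, 222 and 129 CPM. Psmb10 of the immunoproteasome had 111 and 97.8 CPM, a log2 ratio of -0.18 (-0.25 to -0.12). The ratios within the list thus ran from near-complete loss to a slight difference.

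Over the 59 list genes with at least 20 UMI in the sums, the median log2 ratio was -1.66, against -0.00 over all genes past the same minimum. A gene that passed only through the Ifnar+/- library had to be lower, so this count is a description. The median was -1.77 in CD150-high and -1.70 in CD150-low cells, so it was alike on both sides of the CD150 split. It was -1.68 in the other Klf1 cells, -1.99 in all other cells and -0.67 in the P14 cells, and the difference between ages was not tested. With 5 CPM added before the ratio, the newborn median was -0.68.

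**Figure D4:**
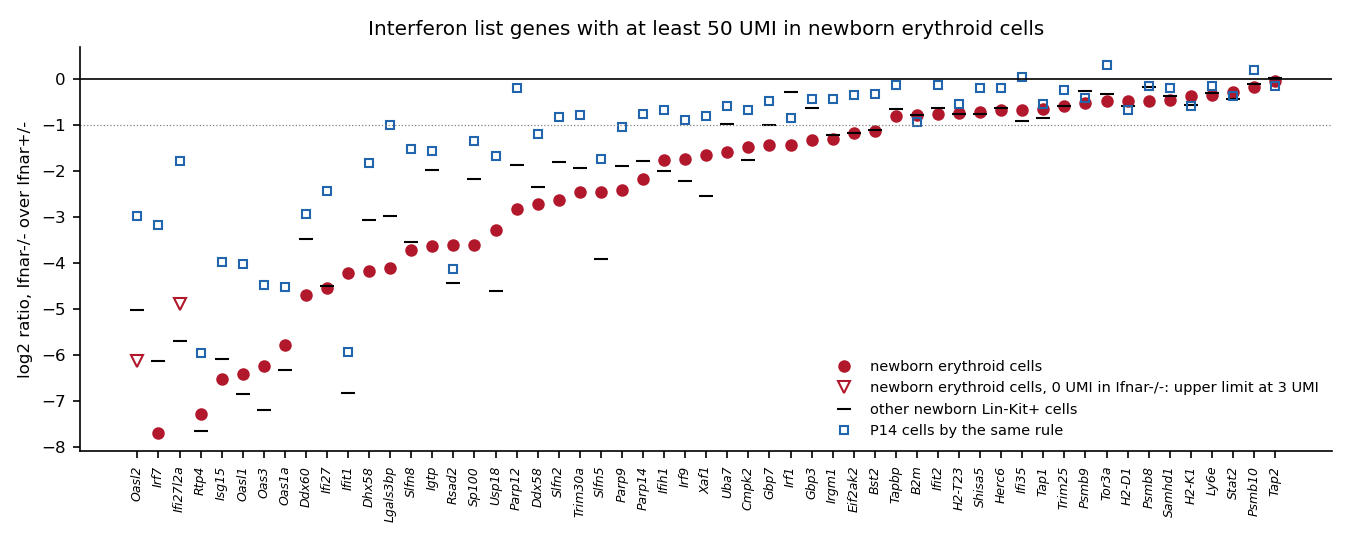
Log2 ratio of Ifnar-/- over Ifnar+/- for interferon list genes with at least 50 UMI in the newborn erythroid cells, sorted, with 1 list gene not drawn, for newborn erythroid cells, the other newborn Lin-Kit+ cells and P14 cells of the same rule; the dotted line is 2-fold. Open triangles are upper limits for genes with 0 UMI in the Ifnar-/- cells, and Isg15 lies at -6.52, -6.09 and -3.99 in the 3 kinds of cell.

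Erythroid lists held few genes apart between genotypes, where the background shares were 0.862% lower and 0.0862% higher. On the erythroid transcription factor list 0 of 20, on the membrane list 0 of 23 and on the haem list 0 of 18 measured genes were at least 2-fold apart. On the erythropoietin signalling list, which shares a gene with the interferon list, 1 of 12 was at least 2-fold lower in the Ifnar-/- cells. All 18 haem genes were slightly higher in the Ifnar-/- cells, with a median log2 ratio of 0.22 against -0.00 over all genes. In the other cells 18 of 20 were higher, with a median of 0.18 against -0.03. Blvrb, biliverdin reductase B, had 552 and 678 CPM. Rhd had 81.2 and 117 CPM, a log2 ratio of 0.52 (0.45 to 0.60), with 0.40 in the other cells and 0.06 at P14.

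Of the 9 genes at least 2-fold higher in Ifnar-/- erythroid cells, the immediate early factor Jun, at 18.6 and 37.2 CPM, was the 1 that reached 10 CPM. Its relatives Fos, at 1.04 and 2.89 CPM, and Fosb, at 0.673 and 1.67 CPM, were also among the 9. In the other cells Jun stood at 28.1 and 50.5 CPM, and at P14 its log2 ratio was -0.14. Lists of other lineages leaned both ways between genotypes. On the neutrophil list 5 of 6 measured genes were higher in Ifnar-/- erythroid cells, and 0 were 2-fold apart. In the other cells all 8 genes of the neutrophil list were higher in Ifnar-/-, with a median log2 ratio of 0.31. On the monocyte list 0 of 4 were above 0 and 1 was at least 2-fold lower in erythroid cells. The megakaryocyte list had 3 of 8 above 0 and 5 below, 1 of them at least 2-fold lower. On the basophil and mast cell list 2 of 4 were at least 2-fold lower, against 0.862% of all genes, and 1 was above 0. In the other cells 4 of 8 measured genes of that list were above 0 and 4 below. Cma1, mast cell chymase, had 7.54 and 1.03 CPM in erythroid cells, and Cpa3, carboxypeptidase A3, 7.54 and 3.34 CPM. The 9 basophil and mast cell markers summed to 439 and 428 CPM, of which Srgn gave 415 and 417 CPM. Fcer1a had 0 UMI in the Ifnar-/- erythroid cells, and Gzmb had 0 UMI in the Ifnar+/- erythroid cells. With erythroid cells removed that held 10 or more UMI per 10000 of the neutrophil, megakaryocyte or basophil and mast cell markers, 83 genes were lower and 8 higher.

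The rule was also applied to the P14 Lin-Kit+ libraries, which gave 481 and 927 cells. Age, organ and library cannot be told apart here, and P14 cells held more Car1, at 1878 and 1673 CPM. Of 10503 genes, 261 were at least 2-fold higher at P14 in both genotypes (2.49%) and 201 were lower (1.91%). Klf1 stood at 169.5 and 177 CPM at P14 and Rhd at 96.8 and 101 CPM, near their newborn levels. Rhag stood at 63.2 and 65.4 CPM at P14 against 120.5 and 118 CPM at birth.

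Metallothioneins were higher at birth. Mt2 stood at 1448 and 1241 CPM at birth and 151 and 169 CPM at P14, and Mt1 at 2031 and 1903 CPM and 536 and 629 CPM. Slc30a10, a metal transporter, stood at 12.9 and 17.4 CPM and 1.64 and 1.85 CPM. These were the 3 of 13 measured metallothionein and zinc transporter genes at least 2-fold lower at P14, and 0 were higher. On the fetal list 2 of 5 were lower: Lin28b, an RNA-binding protein of the fetal programme, stood at 24.0 and 23.042 CPM and 1.97 and 2.16 CPM, and the imprinted gene Dlk1 at 6.90 and 7.09 CPM and 0.361 and 0.228 CPM. At birth 6 of 8 measured fetal list genes were at least 2-fold lower in the erythroid cells than in the other cells of both libraries, against 14.0% of all genes. The median log2 ratios of the list were -1.58 and -1.77 there.

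The named genes lower at P14 were led by Ndufa4l2, a mitochondrial protein, with 3874 and 5871 UMI at birth and 5 and 3 at P14. Its log2 ratios were -8.94 (-10.70 to -7.86) and -11.34 (-13.84 to -10.02). Egln3, a prolyl hydroxylase, stood at 31.4 and 38.8 CPM at birth and 0.441 and 0.996 CPM at P14, and Slc16a3, a lactate exporter, at 51.7 and 69.8 CPM and 2.77 and 4.38 CPM. Podxl, a sialomucin, stood at 33.5 and 31.2 CPM and 1.56 and 2.05 CPM, and Lpl, lipoprotein lipase, at 24.1 and 29.8 CPM and 1.16 and 0.996 CPM. Trnp1, a nuclear protein, had 777 and 839 UMI at birth and 3 and 10 at P14. Its fall was not particular to the erythroid cells, since the other Lin-Kit+ cells had 10.7 and 12.2 CPM at birth and 0.0794 and 0.0884 CPM at P14. The remaining genes of this paragraph are given for the erythroid cells alone.

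Higher at P14 were Cpne2, a calcium-dependent membrane binding protein, at 39.4 and 31.6 CPM against 2.47 and 2.02 CPM at birth, and Cpt1a, which admits fatty acids to mitochondria, at 42.5 and 35.5 CPM against 7.01 and 5.58 CPM. The immediate early gene Fos stood at 20.9 and 20.6 CPM against 1.04 and 2.89 CPM, and Fosb at 21.3 and 26.1 CPM against 0.673 and 1.67 CPM. On the iron list 2 of 14 measured genes were at least 2-fold higher and 0 were lower. These 2 were Tfrc, at 304 and 282 CPM against 86.9 and 81.6 CPM, and Slc40a1, the iron exporter ferroportin. As a whole the list went both ways, with 6 genes above 0 and 7 below in both genotypes. Gata2 was the 1 higher gene of the 20 measured on the factor list, at 109.9 and 84.5 CPM against 36.5 and 34.2 CPM, and 0 were lower. On the membrane list 2 of 22 measured genes were higher, Aqp1 and Aqp9, and 2 were lower, Sptb and Tmod1. Over all genes 2.49% were higher and 1.91% lower by the same limit. The CD150 tag had a median of 338 and 265 at P14 against 109 and 93 at birth.

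**Figure D5:**
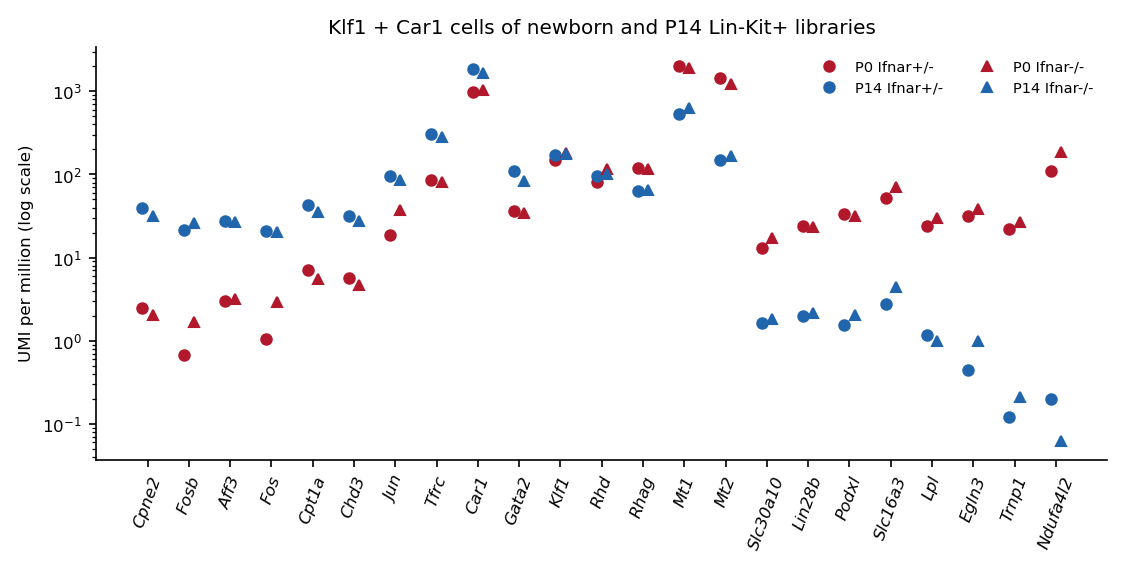
CPM on a log axis in cells of the same Klf1 plus Car1 rule at P0 and P14, 1 point per library, for genes of the named, marker, iron, zinc and fetal lists. Klf1 and Rhd overlap between ages, Mt2 and Lin28b are high at birth in both genotypes, and Cpne2 and Fosb are high at P14.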

How the data were processed

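RNA and antibody tags were measured by 10x Genomics 3' CITE-seq. Per the submitters' processing notes the authors used Cell Ranger 6.0.1 with mm10, while the deposited file headers name Cell Ranger 4; strand handling and counting options are not given in the sources used here. The deposited values are raw UMI counts per gene or tag and barcode, unfiltered. Cells needed 7500 gene UMI and at most 10% mitochondrial UMI. UMI were summed per library and cell group and divided by the total, and ratios had 0.5 UMI added. A gene was counted as apart at 2-fold (tags, and the CD150 split, 1.5-fold) in both libraries with at least 50 UMI. Most list medians used the same minimum, and the interferon medians between genotypes used at least 20 UMI. There is 1 library per group, so no test was run. Differences between shares combine the exact bounds of each share; ratio intervals are exact conditional binomial. Scrublet (scanpy 1.11.5), TMM factors (edgeR 4.0.16), thinning and other limits were alternatives; ratio code was checked on simulated data. Named genes had the largest ratio in both libraries, 15 higher and 8 lower (6 higher met the 20 CPM minimum), 10 per direction by genotype at 10 CPM, and 6 per direction by age, without sex, mitochondrial and unnamed genes. Gene positions are RefSeq's for GRCm38.p6. The members, lists and marker sets were chosen with earlier results of these data known, and the CD150 split and the Klf1 comparison after seeing the data. A few genes counted in the lists are not reported by name or drawn here.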

Additional observations from a re-analysis of the deposited data

Results flagged for a closer look

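Cells that met the Klf1 plus Car1 rule also appeared in the Lin-Sca1+Kit+ libraries, which the comparisons did not use. They were 0.351% of cells in the newborn Ifnar+/- library (18 cells), 0.259% in the newborn Ifnar-/- library (9 cells), 0.368% in the P14 Ifnar+/- library (17 cells) and 0.319% in the P14 Ifnar-/- library (14 cells), each above the share that a count of 0 allows. Their median depth was 67932, 99370, 32693 and 41444 gene UMI in this order, against 32254, 36424.5, 25583.5 and 25633 in the remaining cells. Scrublet was not run on these libraries, so whether these barcodes are mixtures was not tested. For 3 tags the difference between genotypes in erythroid cells had opposite signs at birth and at P14, and these differences were not tested. At birth the Ifnar-/- median was higher by 91 tags for CD117 and by 141 for CD48, and the difference for CD34 was -3 tags. The median of all tags per erythroid cell also switched order, at 4256 and 4468 at birth and 5133 and 4436 at P14. As a share of all tags at birth, Ifnar-/- over Ifnar+/- was 1.04-fold for CD117, 0.998-fold for CD48 and 0.878-fold for CD34. The P14 medians of CD34 were 16 and 17.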

How the results depend on the processing

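Genotypes and ages could not be paired because the labels carry no replicate numbers. With 1 library per group, no result comes from a test. Erythroid and other cells, and CD150-high and CD150-low cells, were compared within each library. Counts of genes depended on the low-count setting. With 5 CPM added, the genes apart fell to 335 between erythroid and other cells, 2 of them higher (main 1910, 47 higher), to 38 between genotypes (main 99) and to 115 between ages, 54 higher and 61 lower at P14 (main 462, 261 and 201), and the interferon median was -0.68 (main -1.66). With at least 10 UMI the counts were 401 for genotype, 100 higher and 301 lower in Ifnar-/- cells (main 9 and 90), and 795 for age, and at 1.5-fold they were 2904 for erythroid against other cells, 299 for genotype and 1184 for age. Against other cells with under 1 Klf1 plus Car1 UMI per 10000 the count was 3151, and against other Klf1 cells 71. With the rule at 2.5 per 10000 the total was 2829, of which 312 were higher (main 47). The 3 alternatives to the CD150 split gave 933, 1082 and 969 genes (main 909). The difference in erythroid share between genotypes was 0.832 points (-0.368 to 2.03) at a limit of 5% mitochondrial UMI, and that in G2M share -0.777 at that limit and -1.89 without thinning. No listed value changed sign beyond its counting interval. Genes with a few UMI in 1 library are limited by depth.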
